A study of Mus musculus with 4 samples.

Results

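The spots described here carried transcripts of skeletal muscle and of tendon at the same time. They were chosen from their own counts: a spot of at least 1000 UMIs (unique molecular identifiers, 1 per captured transcript) belonged when 14 genes of fast muscle fibres made up at least 1% and under 5% of its UMIs and 10 tendon genes made up at least 0.5%. Of 10662 spots under tissue on 4 sections, 771 met this rule (7.23%), and 88 spots had too few UMIs to be considered. The muscle genes of the rule were Acta1, Ckm, Myh4, Myh1, Myh2, Tnnt3, Tnni2, Tnnc2, Mylpf, Myl1, Actn3, Pvalb, Atp2a1 and Mybpc2, and the tendon genes were Scx, Tnmd, Mkx, Fmod, Thbs4, Comp, Kera, Chad, Cilp and Cilp2. A Visium spot is a small area of a section that can hold several cells of different types, so a spot with both programs may hold both cell types side by side, and it is called a mixed muscle and tendon spot.

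The sections came from the injured left Achilles tendon of mice aged 12 weeks, of both sexes, dissected 14 days after a punch wound of 0.5 mm, placed roughly 2 mm from where the tendon joins the heel bone. Of the 4 sections, 2 were labelled as controls with wild-type TrkA (WT 1 and WT 2) and 2 carried the TrkA F592A allele and had received 1NMPP1 (F592A 1 and F592A 2). TrkA is the receptor for nerve growth factor. The F592A change enlarges the ATP pocket of its kinase so that the small molecule 1NMPP1 can block it. Genotype and drug changed together and cannot be told apart, and no label states if 1NMPP1 was also given to controls. Tissue of 4 mice per genotype was pooled, and the labels do not tie a section to a mouse, so p-values over sections measure the spread between these sections only.

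Skeletal muscle passes its force to tendon at the myotendinous junction, where the end of each fibre is folded into the tendon matrix and anchored through integrins, the dystrophin complex and laminin of the basement membrane. Collagen XXII, encoded by Col22a1, is deposited at this site, and Ankrd1, a stretch-responsive titin-binding protein, is enriched in fibre ends. The calf muscles that feed the Achilles tendon contain fast fibres and, in soleus, many slow fibres, and injured fibres regrow through a stage that uses embryonic myosin and fetal acetylcholine receptor subunits.

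There were 192 mixed spots on WT 1 and 312 on WT 2, against 180 on F592A 1 and 87 on F592A 2. They were 6.38%, 15.6%, 6.38% and 3.17% of the spots of at least 1000 UMIs. The mean share was 10.99% ± 6.52 (SD, n = 2) in WT and 4.78% ± 2.27 (SD, n = 2) in F592A. The difference of -6.22 percentage points had a p of 0.667 when section labels were permuted (exact, two-sided), and 2 sections against 2 cannot go below 0.33. WT 2 had the high share, and WT 1 and F592A 1 had the same one.

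Mixed spots summed to 4228173, 4684773, 3018831 and 1919244 UMIs in WT 1, WT 2, F592A 1 and F592A 2, with medians per spot of 16201, 7489, 9609 and 10592. A few deep spots weighed heavily in F592A 2, where the 5 deepest held 43.9% of the UMIs, against 10.6%, 13.3% and 25.7% in the other sections. WT 2 also stood apart in sex: its mixed spots held 566 UMIs of Xist, the transcript of the inactive X chromosome, against 0 in each of the other 3 sections, and 2 UMIs of 4 Y-linked genes against 814, 598 and 397. Replicate sections differed well beyond sampling noise, with a chi-square per degree of freedom over genes of 15.99 for the WT pair and 5.94 for the F592A pair. For pairs of 1 WT and 1 F592A section it ran from 7.43 to 15.84, so the WT pair differed most. Sections shared between 994 and 2429 spot barcodes, which on Visium slides are array positions. The F592A pair shared the most and the outlines of its sections on the map look alike, and whether they came from 1 mouse is not given.

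The rule sets the levels of its own genes, so their values are a description. Fast muscle genes took a median of 2.10%, 1.68%, 2.08% and 1.65% of a mixed spot's UMIs in WT 1, WT 2, F592A 1 and F592A 2, and tendon genes took 0.644%, 0.697%, 0.621% and 0.631%. Just inside the tendon limit, below 0.55%, lay 45, 58, 47 and 22 mixed spots, and just outside it, from 0.45%, lay 56, 71, 61 and 30. Below 1.1% for muscle genes lay 16, 26, 12 and 5 mixed spots, and 12, 32, 12 and 10 tendon-bearing spots lay between 0.9% and the limit. From 4.5% for muscle genes lay 2, 22, 8 and 4 mixed spots, and 13, 8, 5 and 1 tendon-bearing spots lay from 5% to under 5.5%. Muscle RNA was also counted where no fibres are expected: in spots with at least 5% of UMIs from keratinocyte genes (3, 5, 85 and 46 spots), the fast muscle genes summed to 0.587%, 0.440%, 0.860% and 0.781%. The lower muscle limit of 1% is close to that level, and how far stray muscle RNA brought spots into the set was not tested.

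Position on the array was not part of the rule. Of the immediate neighbours of mixed spots, 40.0%, 44.6%, 45.9% and 39.3% were themselves mixed in WT 1, WT 2, F592A 1 and F592A 2. Tendon-rich spots (tendon genes at least 0.5%, fast muscle genes under 1%) made up 14.2%, 16.6%, 9.24% and 13.3% of these neighbours, and muscle-rich spots (fast muscle genes at least 5%) made up 11.2%, 7.24%, 7.81% and 4.30%. Mixed spots touched a muscle-rich spot in 31.3%, 21.5%, 22.8% and 12.6% of cases. The same held for 15.97%, 6.13%, 11.9% and 9.31% of the remaining spots, which are neither mixed, tendon-rich nor muscle-rich, and for 0.548%, 0.236%, 0.398% and 0% of tendon-rich spots. They touched a tendon-rich spot in 35.4%, 45.2%, 30.6% and 39.1% of cases, against 18.7%, 31.3%, 15.6% and 13.6% of the remaining spots. In all 4 sections mixed spots touched each tissue more often than the remaining spots did. This order is not independent of the rule, since the limits on the same genes set every kind of spot. How far RNA spread from neighbouring spots shaped it was not tested.

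The label of a muscle and tendon border holds only in part by position. Mixed spots lay within 3 array steps of a muscle-rich and of a tendon-rich spot in 30.7%, 29.5%, 23.3% and 21.8% of cases, and touched both in 3.65%, 2.88%, 3.33% and 3.45%. The median distance was 3, 4, 4 and 8 steps to muscle-rich spots and 2.5, 2, 2 and 2 steps to tendon-rich spots. The spots formed 50, 60, 41 and 28 patches, of which the largest held 82, 65, 57 and 24 spots and 29, 33, 26 and 19 were single spots. The share of muscle-rich neighbours was 9.22% ± 2.81 (SD, n = 2) in WT and 6.06% ± 2.48 (SD, n = 2) in F592A, which differ by -3.17 percentage points (p = 0.667, two-sided exact permutation). Groups overlapped in this measure, and F592A 2 had the fewest muscle-rich neighbours.

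**Figure D1:**
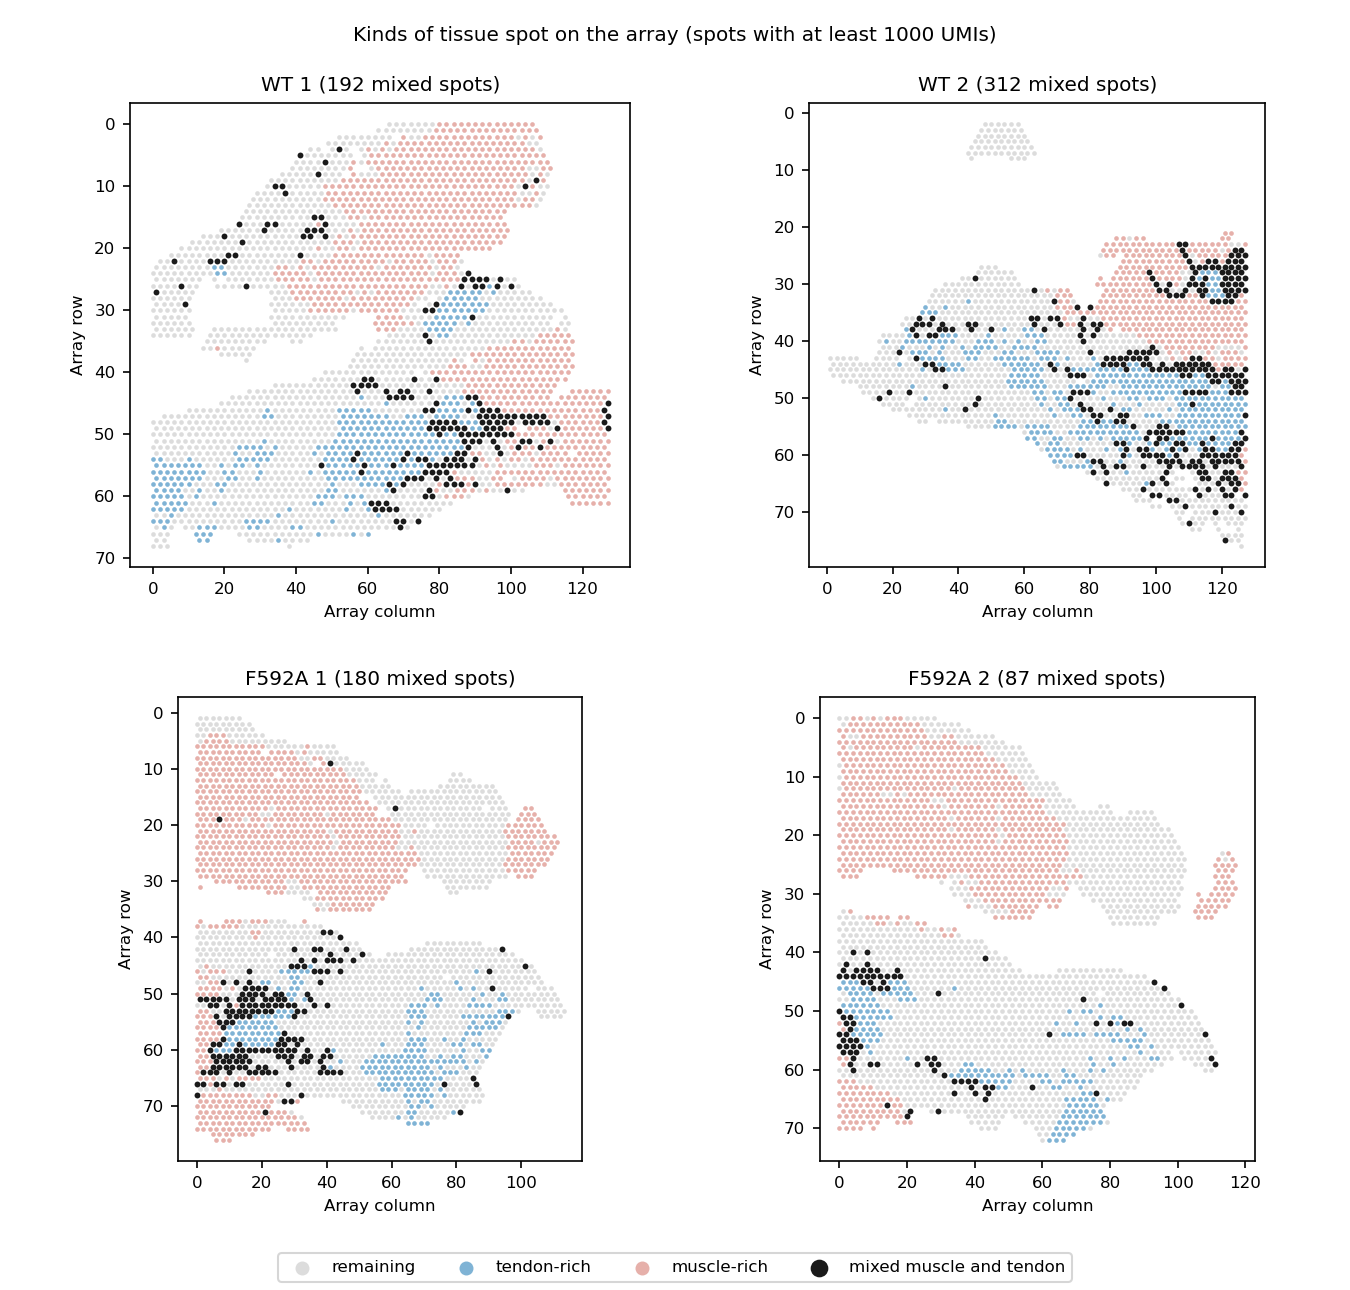
Map of the 4 sections by array column and row, 1 panel per section, with each spot of at least 1000 UMIs coloured as mixed, tendon-rich, muscle-rich or remaining. The 192, 312, 180 and 87 mixed spots form patches of up to 82, 65, 57 and 24 spots and single spots, and 35.4%, 45.2%, 30.6% and 39.1% of them touch a tendon-rich spot.

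Muscle and tendon genes outside the rule followed its 2 programs. Levels in this and the next 4 paragraphs are UMI counts scaled to a common total (CPM, the usual unit for depth-scaled counts), summed over the spots of a kind in a section, with no test, because the spots were chosen by genes of the same tissues. Ttn, which encodes the sarcomere spring titin, was at 850.2, 822, 643 and 611 CPM in mixed spots of WT 1, WT 2, F592A 1 and F592A 2. In tendon-rich spots it was at 99.4, 138, 64.6 and 70.9 CPM, and in muscle-rich spots at 5761, 5188, 4281 and 5242 CPM. Mixed spots thus lay between the other kinds in every section. All 10 skeletal muscle genes listed outside the rule were above tendon-rich and below muscle-rich spots in all 4 sections, as were 1471 and 1285 of 8401 genes of at least 10 CPM, counted separately. Those 10 summed to 23.6%, 24.1%, 18.3% and 22.4% of their muscle-rich level.

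Tendon matrix genes outside the rule were closer to their tendon level. Col1a1, the main chain of tendon collagen, was at 41241, 61661, 49994 and 50812 CPM in mixed spots, between 63246, 74805, 51229 and 55829 CPM in tendon-rich and 15326, 29694, 14410 and 9408 CPM in muscle-rich spots. Lox, the enzyme that crosslinks collagen, was at 911, 926, 939 and 719 CPM in mixed spots, against 1447, 1145, 1158 and 1088 CPM in tendon-rich spots. All 10 tendon matrix genes listed were above muscle-rich spots in all 4 sections, but so were 5160 of 8401 genes. Their sum was 65.0%, 81.8%, 99.9% and 94.2% of the tendon-rich sum. Dcn, a small proteoglycan that binds collagen fibrils, was at 2585, 3128, 3424 and 2939 CPM, above its muscle-rich level of 1558, 1770, 1783 and 1461 CPM.

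Among the listed muscle genes outside the rule, the mixed level as a share of the muscle-rich level was 11.6% to 15.8% for Ttn, 21.5% to 38.6% for the myoglobin gene Mb and 26.8% to 42.4% for the intermediate filament gene Des. The next genes were picked for exceeding all other spots, so high shares follow from that choice. Csrp3, which encodes a Z-disc protein that senses strain, reached 36.3% to 46.1%. Cryab, a small heat shock protein that protects desmin, reached 41.6% to 61.2%, and Fhl1 47.1% to 57.5%. Flnc, the muscle filamin of Z-discs and fibre ends, was at 264, 131, 171 and 192 CPM in mixed spots, 55.3% to 118% of its muscle-rich level. Mustn1, a gene active in regenerating muscle, was at 274, 70.9, 183 and 295 CPM, 64.3% to 246% of its muscle-rich level. These are ranges over the 4 sections, with no test. Des and Flnc are also expressed outside skeletal fibres, and the part of other cells in these levels was not tested.

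**Figure D2:**
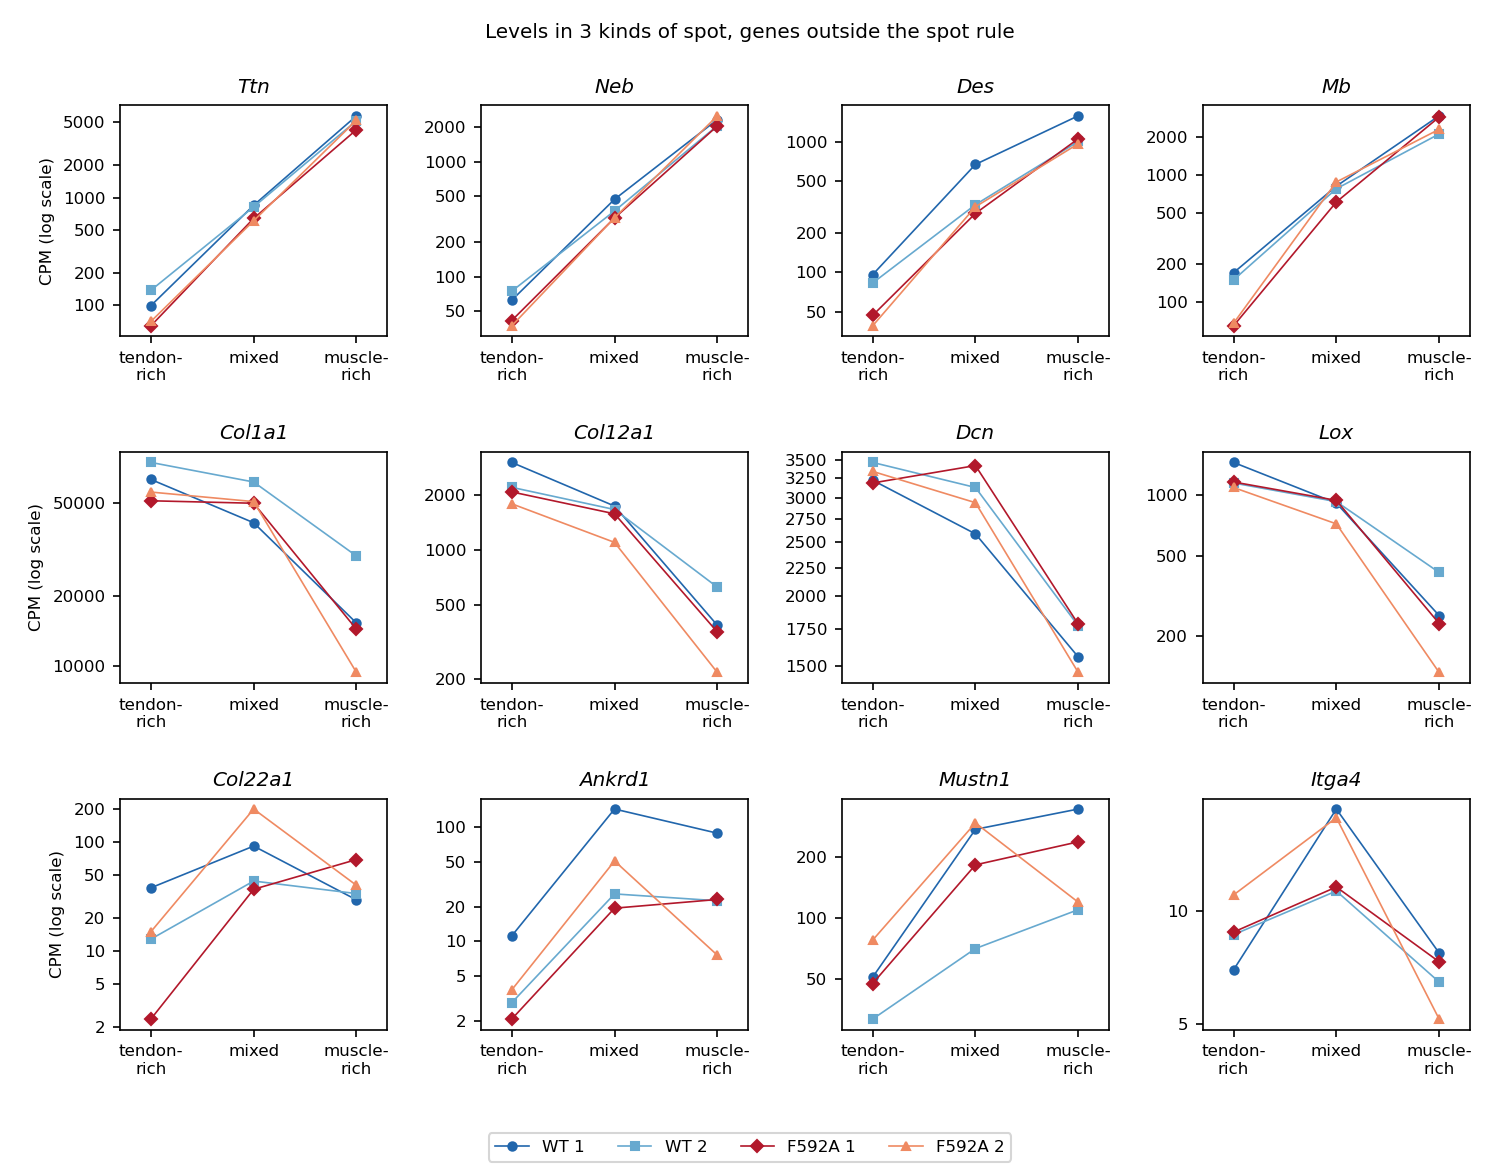
Levels (CPM, log axis) of 12 muscle, tendon, junction and other genes outside the rule in mixed, tendon-rich and muscle-rich spots, 1 line of points per section. Ttn lies between the kinds of spot in all 4 sections, and Col22a1 and Ankrd1 are higher in mixed than in tendon-rich spots in all 4.

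Among the genes that most exceeded all other spots were the Z-disc and intermediate filament genes above together with Klhl41, Actn2, Nrap, Cacng1, Pdlim3, Hspb7 and Apobec2, all genes of muscle fibres, and the matrix genes Mgp and Fbln7. Mgp, an inhibitor of calcification, was at 2855, 2193, 2551 and 3188 CPM in mixed spots of WT 1, WT 2, F592A 1 and F592A 2, against 1674, 2177, 1957 and 1560 CPM in tendon-rich spots. Its mixed level was higher in every section, but by little in WT 2. The 10 genes outside the rule with the highest ratios over both tendon-rich and muscle-rich spots included signalling and leukocyte genes. Dusp6, a phosphatase induced by ERK signalling, was at 44.2, 25.4, 38.1 and 79.2 CPM in mixed spots, 27.2, 19.6, 27.6 and 31.8 CPM in tendon-rich and 25.1, 17.1, 28.4 and 32.7 CPM in muscle-rich spots. Itga4, an integrin chain of leukocytes, was at 18.7, 11.3, 11.6 and 17.7 CPM in mixed spots, 6.98, 8.66, 8.80 and 11 CPM in tendon-rich and 7.74, 6.48, 7.34 and 5.17 CPM in muscle-rich spots. Csf2rb, a cytokine receptor chain of myeloid cells, Olfml2a, Tinagl1, Ppfibp2, Trim2, Daam2, Ssbp3 and Gm13889 completed these 10 genes. Most leukocyte lists did not follow Itga4 and Csf2rb. Above both kinds in all 4 sections were 0 of 11 macrophage, 0 of 7 neutrophil and 0 of 9 T and NK cell genes. The same held for 0 of 8 B and plasma cell, 0 of 8 mast cell and 2 of 7 MHC class II genes. Over all genes of at least 10 CPM it held for 251 of 8401.

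Genes of the myotendinous junction were detected but sparse. Col22a1 was at 91.5, 43.8, 36.8 and 200.1 CPM in mixed spots of WT 1, WT 2, F592A 1 and F592A 2. In tendon-rich spots it was at 37.9, 12.8, 2.37 and 15 CPM, and in muscle-rich spots at 29.4, 33.6, 68.9 and 39.9 CPM. The mixed level was above the tendon-rich level in all 4 sections, and above the muscle-rich level in all but F592A 1. At least 1 Col22a1 UMI was counted in 49.0%, 23.1%, 28.3% and 25.3% of mixed spots. Among keratinocyte spots, the shares were 1.18% of 85 spots in F592A 1 and 6.52% of 46 in F592A 2, at median depths of 6701 and 8855 UMIs. In F592A 2 the 5 spots with most UMIs held 87.2% of its 384 UMIs. Ankrd1 was at 144, 26.0, 19.5 and 50.5 CPM, against 11.2, 2.91, 2.09 and 3.77 CPM in tendon-rich and 88.4, 22.7, 23.3 and 7.58 CPM in muscle-rich spots. Over the list of 6 junction genes, 4 were higher in mixed than in tendon-rich spots in all 4 sections: Col22a1, Ankrd1, Tigd4 and Adamts20. So were 1471 of 8401 genes of at least 10 CPM, a limit that the junction list was not held to. Of the 6, 0 were above both other kinds in all 4 sections, beside 251 of these 8401 genes (2.99%). The other listed members were rarer: Slc24a2 had 1, 6, 1 and 1 UMIs in mixed spots and Adamts20 had 11, 13, 4 and 2. The count of 4 thus rests in part on few UMIs. Col24a1 was at 91.1%, 91.9%, 61.8% and 142% of its tendon-rich level.

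In F592A mixed spots 1 gene differed from WT at an adjusted p under 0.05. From here on, levels are CPM scaled by TMM factors (trimmed mean of M-values) of the sums over mixed spots, and a log2 fold change is F592A over WT with its SE. Serpina3n, which encodes a secreted inhibitor of serine proteases and is an acute-phase gene, was at 17.8 and 24.1 CPM in WT 1 and WT 2, and at 171 and 236 CPM in F592A 1 and F592A 2. The groups did not overlap, and Serpina3n rose by a log2 fold change of 3.27 ± 0.25 (edgeR quasi-likelihood test, Benjamini-Hochberg adjusted p = 0.0279), as 1 of 12380 genes tested (0.00808%). The call was lost without either F592A section (edgeR adjusted p = 0.0821 and 0.146), in spots with 2.5% to under 5% muscle genes (0.172) and with every spot thinned to 1000 UMIs (0.0984). Its fold change was 1.94 in tendon-rich spots (edgeR adjusted p = 0.235) and 1.36 in muscle-rich spots (0.153). A direct test of mixed against other spots did not pass for Serpina3n. The log2 interaction was 1.24 ± 0.45 with tendon-rich (edgeR adjusted p = 0.513) and 1.91 ± 0.44 with muscle-rich spots (0.472). An unadjusted p under 0.05 was reached by 875 genes, and 37.7% of all genes tested (4669) had groups that did not overlap.

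Several genes with non-overlapping groups did not pass the test. Ccn1, a matricellular target of the mechanosensitive YAP pathway, was at 100.9 and 94.2 CPM in WT and 341 and 263 CPM in F592A (log2 fold change 1.63 ± 0.20, edgeR adjusted p = 0.134). Ifi27l2a, an interferon-stimulated gene, was at 51.5 and 75.4 CPM in WT and 255 and 466 CPM in F592A. Hp, the haemoglobin-binding plasma protein haptoglobin, was at 20.4 and 43.6 CPM in WT and 163 and 229 CPM in F592A. Further genes with higher F592A values were Folr2, a marker of resident macrophages (20.6 and 18.4 against 48.6 and 61.1 CPM), the fibroblast matrix gene Fbln1 (66.5 and 65.9 against 163 and 244 CPM) and Per1, a clock and glucocorticoid target (26.9 and 28.5 against 65.0 and 86.6 CPM). Myoc was at 23.4 and 19.7 CPM in WT and 67.7 and 134 CPM in F592A. Among lower values, Coq8a, needed for coenzyme Q synthesis in mitochondria, was at 169 and 182 CPM in WT and 72.8 and 61.1 CPM in F592A (log2 fold change -1.39 ± 0.18, edgeR adjusted p = 0.134).

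Slow muscle genes had lower values in both F592A sections, but none passed the test over all mixed spots. Of the 8 listed, 8 were tested, 8 had negative fold changes and non-overlapping groups, and 8 had an unadjusted p under 0.05, with a median log2 fold change of -3.10. Over all genes tested the median was -0.01 and 48.4% were positive. Groups did not overlap for 4669 of these 12380 genes (37.7%), and 875 had an unadjusted p under 0.05. Sln, the inhibitor sarcolipin of the calcium pump, was at 195 and 166 CPM in WT and 11.3 and 2.00 CPM in F592A (-4.63 ± 0.46, edgeR adjusted p = 0.0977). Tnnt1, slow troponin T, was at 568 and 444 CPM in WT and 74.5 and 23.0 CPM in F592A. Atp2a2, the slow-twitch calcium pump, was at 726 and 638 CPM in WT and 282 and 259 CPM in F592A. Tpm3, the slow tropomyosin gene, is outside this list and was at 321 and 306 CPM in WT and 122 and 130.1 CPM in F592A.

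The slow list had negative medians under other weightings of the spots, while its calls changed. The median was -2.91 without the 5 deepest spots of each section and -2.54 with every spot thinned to 1000 UMIs, and ran from -2.33 without WT 1 to -3.91 without F592A 1. In spots with 1% to under 2.5% muscle genes 6 of the 8 slow genes passed, and at 2.5% to under 5% 0 of 8 did. Without the 5 deepest spots of each section, 19 genes passed, among them 5 of the 8 slow genes: Sln (-4.20, edgeR adjusted p = 0.0047), Tnnt1, Atp2a2, Myh7 and Tnni1, all lower in F592A. With every spot thinned to 1000 UMIs, 14 genes passed, among them 6 of the 8 slow genes. The thinned setting and that without the deepest spots were added after the data had been seen. The slow list's median was -3.21 in tendon-rich and -1.42 in muscle-rich spots, and Sln was also lower there by tests of their own (-5.66, edgeR adjusted p = 0.0261, and -3.77, edgeR adjusted p = 0.00101). The slow genes summed to 0.428%, 0.283%, 0.0845% and 0.0518% of mixed-spot UMIs in WT 1, WT 2, F592A 1 and F592A 2. In these sections less slow fibre in the area and less slow RNA per fibre cannot be told apart.

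Genes of regenerating fibres and myogenic cells followed the same sign. Of 12 listed genes 9 were tested, 9 were negative and 9 had an unadjusted p under 0.05, with a median log2 fold change of -3.41 and no call. Such a p was reached by 875 of all 12380 genes tested. A rare gene can pass the low count filter through 1 group alone, as Chrng did through WT. These signs are therefore not all independent of the filter. The median was -2.07 without WT 1 and -4.13 without WT 2. Embryonic myosin Myh3 was at 643 and 117 CPM in WT and 4.10 and 1.5 CPM in F592A (-6.97 ± 0.98, edgeR adjusted p = 0.134). The groups did not overlap, although WT 1 was far above WT 2. Myog, which encodes the differentiation factor myogenin, was at 99.9 and 24.5 CPM in WT and 7.52 and 3.50 CPM in F592A. Chrng, the fetal gamma subunit of the acetylcholine receptor, had 78 and 21 UMIs in WT and 0 in both F592A sections, which is at least 18.3-fold lower against a floor of 3 UMIs over the group. Chrnd had 46 and 14 UMIs in WT and 0 in both F592A sections, at least 11.1-fold lower. With Chrng set at its bound the list's median stayed at -3.41. In tendon-rich and muscle-rich spots the medians were -3.33 and -1.59.

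Fast muscle genes, whose sum the rule bounds, varied by gene. Of the 14, 11 had positive fold changes with a median of 0.19, and 7 had non-overlapping groups, beside 37.7% of all genes tested. Single values ran from -1.38 for Myh2 to 1.05 for Pvalb. Myh2, the myosin of fast oxidative fibres, was at 862 and 550.5 CPM in WT and 363 and 177 CPM in F592A, and Pvalb, a calcium buffer of fast fibres, was at 366 and 1149 CPM in WT and 1441 and 1695 CPM in F592A. Acta1, skeletal alpha-actin, was at 7009 and 4908 CPM in WT and 4624 and 4423 CPM in F592A, and Tnnt3 was at 1402 and 1670 CPM in WT and 1576 and 1602 CPM in F592A. Of the 10 tendon genes of the rule 9 had negative fold changes, with a median of -0.71, which was -0.11 without WT 2, -0.98 without WT 1 and -0.09 in spots with 2.5% to under 5% muscle genes. Thbs4, an adhesive matrix protein of tendon, was the positive one at 3086 and 3111 CPM in WT and 4166 and 4979.9 CPM in F592A. Fmod, which regulates collagen fibril thickness, was at 754 and 1737 CPM in WT and 879 and 594 CPM in F592A.

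**Figure D3:**
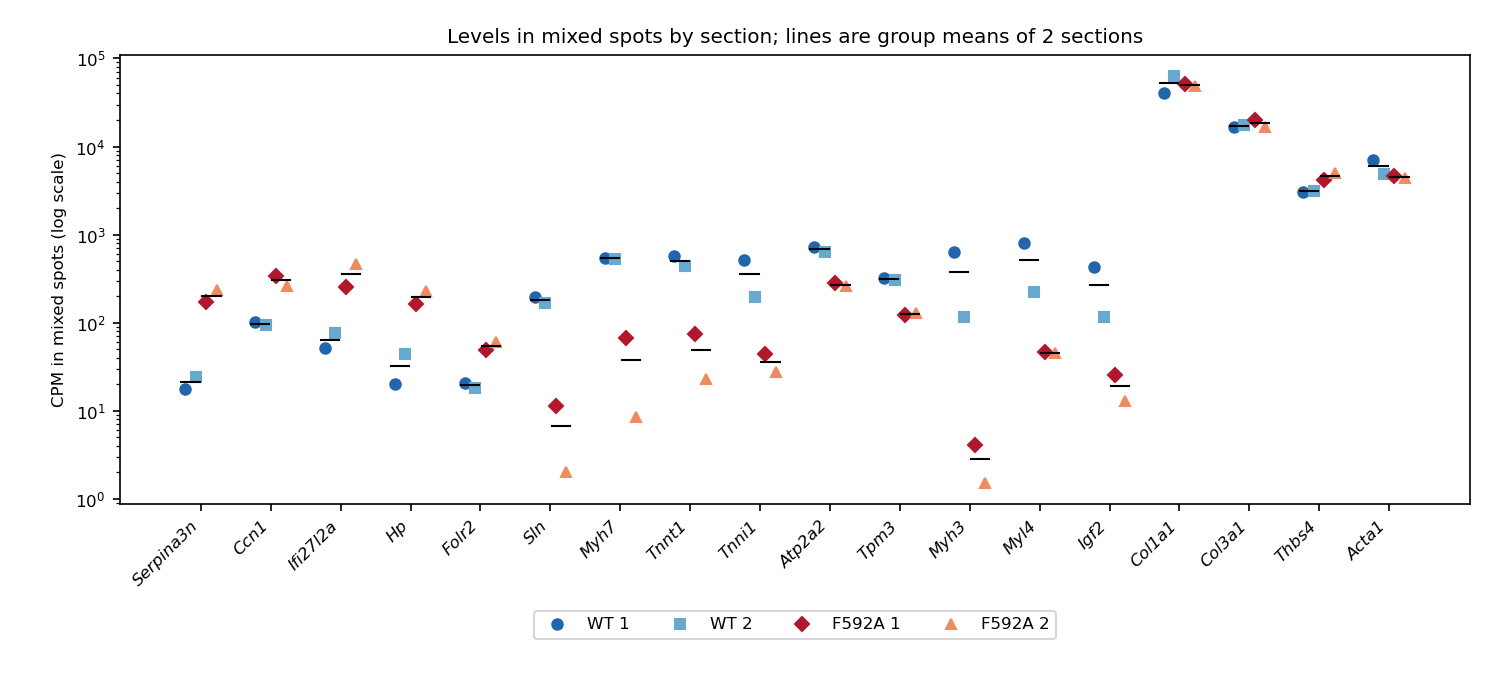
TMM-scaled CPM (log axis) of named genes in mixed spots, 1 point per section with lines at the means of 2 sections. Serpina3n is at 17.8 and 24.1 CPM in WT and at 171 and 236 CPM in F592A, and Sln at 195 and 166 against 11.3 and 2.00 CPM.

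Matrix genes of tendon and junction showed no shared direction. Of 10 tendon matrix genes outside the rule 5 were positive and 5 negative (median -0.02), and of 12 fibrillar collagens and partners 5 were positive and 7 negative (median -0.05), with none called. Col1a1 was at 40804 and 63884 CPM in WT and 51603 and 48808 CPM in F592A, and Col3a1, collagen of granulation tissue, was at 16467 and 17705 against 19930 and 16630 CPM. Of the 6 junction genes 4 were tested, with a median of 0.35 that turned to -0.65 without the 5 deepest spots. Of 20 genes of the myofibre attachment complexes 8 were positive and 12 negative (median -0.06). Itga7, the laminin receptor chain of muscle fibres, was at 75.1 and 57.9 CPM in WT and 28.7 and 62.1 CPM in F592A, with overlapping groups. Itgb1, its partner chain, was at 633 and 540 CPM in WT and 609 and 556 CPM in F592A.

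Mechanosensitive, inflammatory and growth factor genes varied by gene. Among 8 mechanosensitive targets 5 were positive (median 0.63), with Ccn2, a relative of Ccn1, at 195 and 240 CPM in WT and 499 and 607 CPM in F592A. All 6 tested genes of acute inflammation were positive (median 1.37), of 10 listed, and Ptgs2, the inducible cyclooxygenase, was at 3.04 and 4.20 CPM in WT and 32.1 and 19.5 CPM in F592A. Rare genes can pass the low count filter through the group where they are high, so these signs are not all independent of the filter. In the insulin-like growth factor list 8 of 10 were negative (median -0.48), and Igf2 was at 425 and 117 CPM in WT and 25.3 and 13 CPM in F592A (-3.78 ± 0.64, edgeR adjusted p = 0.204). Among 14 nuclear genes of oxidative phosphorylation 14 were negative with a median of -0.26, and among 11 genes of the mitochondrial genome 11 were negative with a median of -0.37. None of the 42 lists had a called member over all mixed spots.

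Markers of some other cell types had higher summed values in both F592A sections, namely those of adipocytes, macrophages and keratinocytes, while for instance endothelial (0.0459%, 0.0472%, 0.0419% and 0.0568%), mural and erythroid sums overlapped between the groups. Adipocyte genes summed to 0.0568% and 0.0617% of mixed-spot UMIs in WT 1 and WT 2 and to 0.0909% and 0.171% in F592A 1 and F592A 2, and 7 of the 8 tested were positive (median 2.69). This median was 2.34 over 7 genes without the 5 deepest spots, 2.01 without WT 1 and 3.98 without WT 2, and after thinning the 3 genes still tested had a median of -0.31. In the median mixed spot adipocyte genes took 0.0653% and 0.0708% of UMIs in WT 1 and WT 2. They took 0.0611% and 0.0930% in F592A 1 and F592A 2, so the groups overlapped by this measure. Cfd, the adipocyte protease complement factor D, was at 17.8 and 71.2 CPM in WT and 345 and 758 CPM in F592A. Macrophage genes summed to 0.283%, 0.239%, 0.322% and 0.400%, and 11 of 11 were positive (median 0.67, or 0.03 over the 9 genes tested after thinning). Keratinocyte genes summed to 0.0465%, 0.0302%, 0.0703% and 0.0573%, and 10 of 10 were positive (median 0.81). The keratinocyte median was 1.25 without the 5 deepest spots and 0.23 over the 9 genes tested after thinning. It was 2.25 in muscle-rich and -0.85 in tendon-rich spots. Spots with at least 5% of UMIs from keratinocyte genes numbered 3 and 5 in WT and 85 and 46 in F592A. The part of these cell types in the differences of single genes, among them Serpina3n and Hp, was not tested. Mixed spots within 3 array steps of a muscle-rich spot (110, 146, 80 and 24 spots, a setting added after the data had been seen) had 17 genes past the threshold, 16 of them higher in F592A, including Serpina3n, Cfd, Adipoq, Plin1, Retn, C3 and C4b, and Sln was the lower one.

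**Figure D4:**
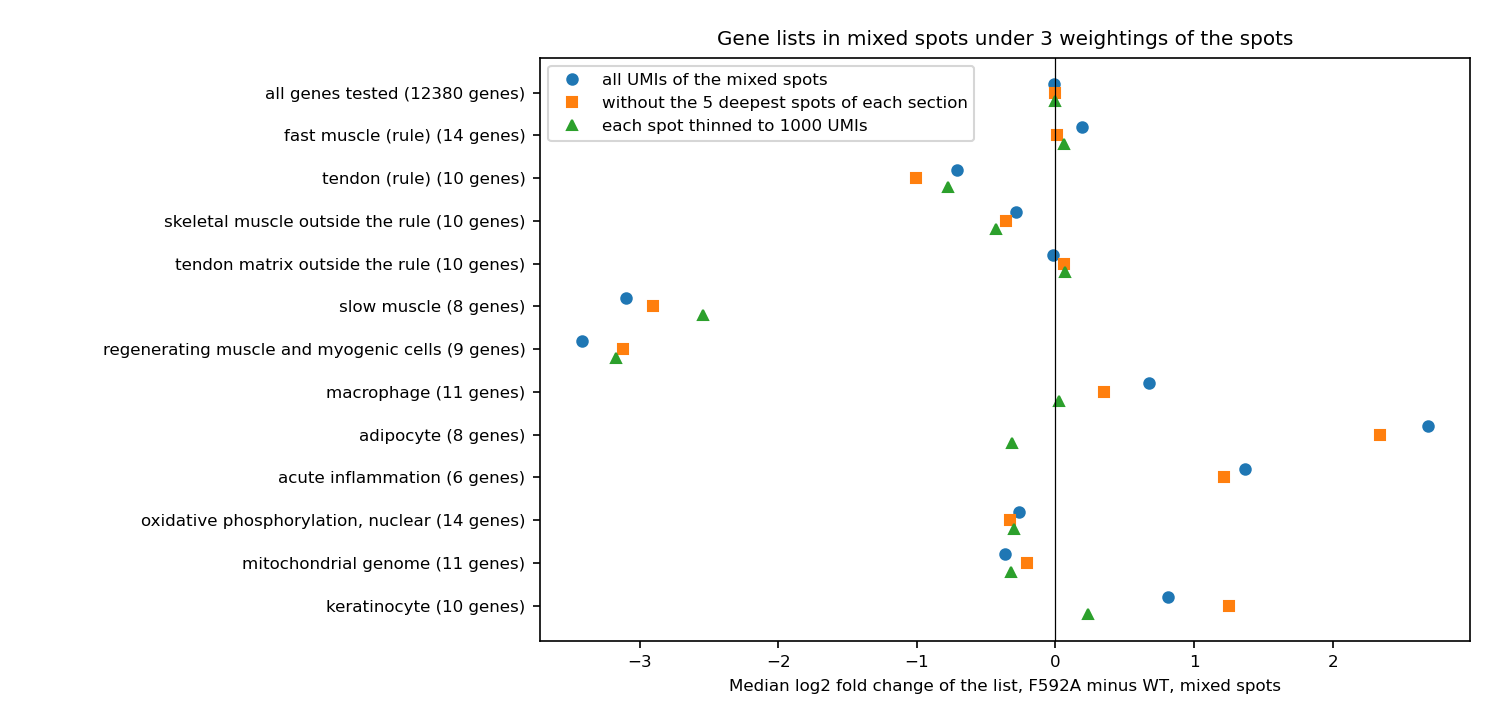
Median log2 fold change, F592A over WT, of the genes tested in each fixed list, in all mixed spots and in mixed spots without the 5 deepest spots of each section or thinned to 1000 UMIs. The top row is the median of all genes. Slow muscle genes (-3.10) and regenerating muscle genes (-3.41) lie lowest, and gene numbers beside the names are those tested with all UMIs, since thinning leaves 3 adipocyte genes (-0.31), 3 regenerating muscle genes and 9 macrophage genes.

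Whether the F592A difference was particular to mixed spots was tested as a group by spot kind term with the section as a block, on sums of mixed and of tendon-rich spots. Levels here are TMM-scaled CPM of this joint fit, and 13 of 13969 genes passed (0.0931%), 12 with a more positive and 1 with a more negative difference in mixed spots. Among the positive ones, Cilp2 is a tendon gene of the rule and its value is a description. Col22a1 was at 89.2, 44.9, 37.8 and 190 CPM in mixed spots of WT 1, WT 2, F592A 1 and F592A 2, and at 38.1, 13.3, 2.38 and 14.9 CPM in tendon-rich spots. Its difference was 2.32 ± 0.23 log2 units more positive in mixed spots (edgeR adjusted p = 0.00672), and this call was lost without the 5 deepest spots (adjusted p = 0.146). Mmp14, the membrane-bound collagenase, was at 1019, 989, 1035 and 812 CPM in mixed spots and at 1007, 1047, 457 and 387 CPM in tendon-rich spots. Its interaction was 1.16 ± 0.15 (edgeR adjusted p = 0.0306). The groups overlapped in mixed spots, and in tendon-rich spots both F592A sections were below both WT sections. Retnla, a marker of alternatively activated macrophages, was at 49.1, 19.95, 41.2 and 15.8 CPM in mixed spots and at 40.9, 22.6, 4.41 and 4.71 CPM in tendon-rich spots (2.58 ± 0.36, edgeR adjusted p = 0.0437). Mb, the oxygen-binding myoglobin of oxidative fibres, was at 797, 801, 631 and 837 CPM in mixed spots and at 171, 155, 65.4 and 67.7 CPM in tendon-rich spots (1.16 ± 0.17, edgeR adjusted p = 0.0437). For Retnla and Mb too, groups overlapped in mixed spots, while both F592A sections lay below both WT sections in tendon-rich spots. The 10 listed muscle genes outside the rule, Mb among them, shifted by a median of -0.92 log2 units in tendon-rich spots. In mixed spots their median shift was -0.28. How far the muscle RNA in tendon-rich spots shaped the Mb call was not tested.

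Tpm3 was the gene with the more negative difference. It was at 317, 303, 121 and 129 CPM in mixed spots of WT 1, WT 2, F592A 1 and F592A 2, and at 155, 174, 156 and 139 CPM in tendon-rich spots, an interaction of -1.15 ± 0.17 (edgeR adjusted p = 0.0437). In mixed spots both F592A sections were below both WT sections, and in tendon-rich spots the groups overlapped. The calls of Mmp14, Retnla and Tpm3 were lost without F592A 1 (edgeR adjusted p = 0.0557, 0.173 and 0.136), and that of Mb without F592A 2 (0.102).

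Against muscle-rich spots 1 of 13217 genes passed (0.00757%). Actc1, the cardiac alpha-actin that embryonic and regrowing skeletal fibres also make, was at 494, 86.2, 17.3 and 6.05 CPM in mixed spots of WT 1, WT 2, F592A 1 and F592A 2. In muscle-rich spots it was at 557, 88.9, 219 and 270.3 CPM. The F592A values were low in mixed spots and lay between the WT values in muscle-rich spots, an interaction of -4.22 ± 0.40 (edgeR adjusted p = 0.0184). The call held with each section left out in turn and without the 5 deepest spots.

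**Figure D5:**
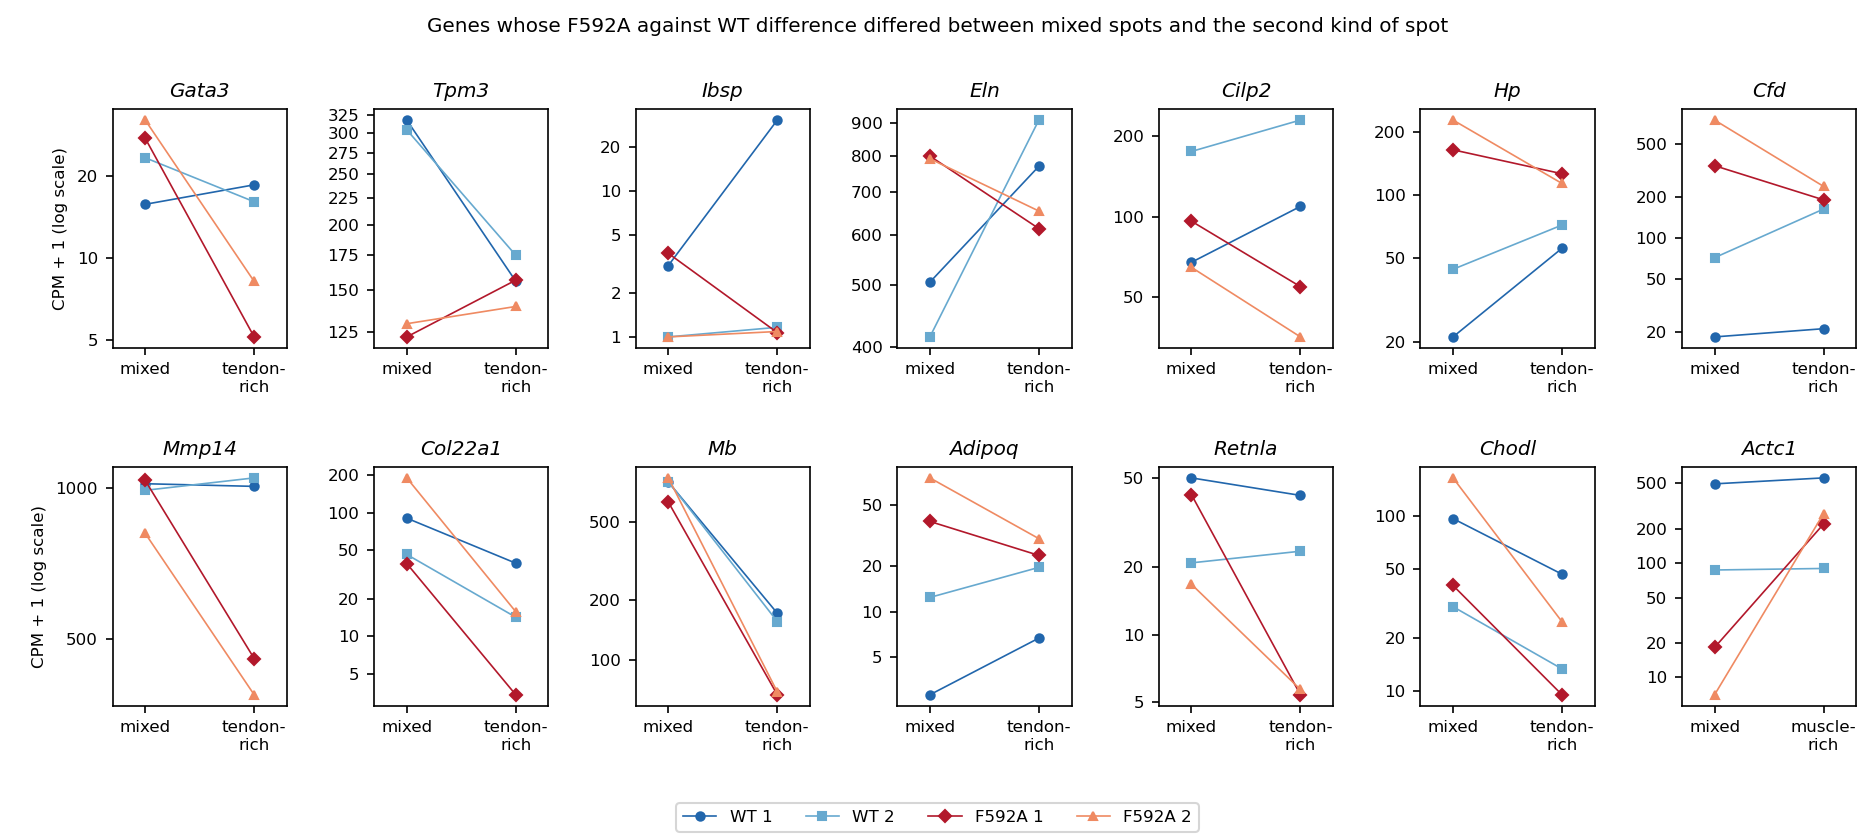
TMM-scaled CPM plus 1 (log axis) of genes with a group by spot kind term past the threshold, 1 point per section in mixed spots and in the spots they were compared with. Tpm3 is at 121 and 129 CPM in F592A mixed spots against 317 and 303 CPM in WT, with overlapping groups in tendon-rich spots, and Actc1 is at 17.3 and 6.05 CPM in F592A mixed spots and at 219 and 270.3 CPM in F592A muscle-rich spots.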

How the data were processed

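Gene expression was measured with Visium on 4 fresh frozen sections of 10 µm, 2 WT and 2 F592A. Per the file headers, the deposited counts are raw UMI counts per gene and spot from Space Ranger 1.3.0. The genome build mm10 and Seurat 3 are named per the submitters' processing notes. All 32285 genes of the files were kept. The members and gene lists were chosen with earlier results of these data known. Counts were summed per section over mixed spots, because spots are not replicates, and tested with edgeR 4.0.16 on R 4.3.3 (quasi-likelihood test, TMM scaling, filterByExpr, Benjamini-Hochberg adjustment, threshold 0.05). For F592A against WT the filter asks for enough counts in 2 sections, so a rare gene can pass through 1 group alone. Interactions used 8 sums per fit with the section as a block. Shares were compared with exact permutation tests over sections. DESeq2 1.42.0 was an alternative, and others were a fit without the low count filter, other limits of the rule, left-out sections and the replicate block. Scripts were tested on simulated counts with 200 genes changed. For F592A against WT in mixed spots, among 12380 genes, 52% of 2-fold and 89% of 4-fold changes were recovered with 7 false calls. The changed genes were drawn from those above a low level, and each gene was given the spread typical of its level. These shares therefore do not hold for genes of low counts or of wider spread, and a missing call does not mean a small change. Summing, tests of position and figures used Python 3.11.15, numpy 2.4.6, pandas 2.3.3, scipy 1.17.1 and matplotlib 3.10.9. Genes named for F592A against WT were up to 12 per direction that passed and had mean log2 CPM 5 or more, filled to 8 by smallest p. Up to 4 per direction were named for interactions and up to 4 per list. Near-identical paralogs can split reads, so their counts are uncertain. The level of the targeted gene is not reported here.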

Additional observations from a re-analysis of the deposited data

Results flagged for a closer look

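A difference between F592A and WT that itself differed between mixed and other spots was found for 14 genes by the interaction test, 13 against tendon-rich spots, the rule gene Cilp2 among them, and 1 against muscle-rich spots. All called genes are given, so some fall outside the naming rule and were chosen after their values were seen. Against tendon-rich spots the log2 interactions were 2.32 for Col22a1, 2.58 for Retnla, 1.16 for Mmp14, 1.16 for Mb, 2.22 for Gata3, 7.84 for Ibsp, 1.73 for Hp, 2.07 for Cfd, 1.20 for Eln, 1.40 for Chodl, 2.00 for Adipoq and -1.15 for Tpm3. The value of 1.39 for Cilp2 is a description, because Cilp2 is a gene of the rule that chose both kinds of spot. Against muscle-rich spots the interaction was -4.22 for Actc1. Ibsp, a bone matrix gene, rested on 1 section, with 29.3 CPM in tendon-rich spots of WT 1 and 2.08, 0, 2.72 and 0 CPM in mixed spots. Eln, elastin, was at 505, 414, 798 and 790 CPM in mixed spots and at 769, 909, 613 and 653 CPM in tendon-rich spots, so that its order of groups was opposite in the 2 kinds of spot. Hp, Cfd and Adipoq are fat or acute-phase genes. Summed over mixed spots, adipocyte RNA was also higher in F592A, though not in the median spot of F592A 1, and the part of fat was not tested. Groups of 2 sections are too small for a test of the gap of 1 section from the others, and values with each section left out are given with the processing alternatives.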

How the results depend on the processing

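The count of 1 gene for F592A against WT in mixed spots was 90 with DESeq2, 311 without a filter on low counts, 25 with the replicate block, 25 in spots with 1% to under 2.5% muscle genes, 0 at 2.5% to under 5% (624 at an unadjusted p under 0.05), 4 with at least 1% tendon genes, 14 after thinning, 17 near muscle-rich spots and 19 without the 5 deepest spots. With each section left out it ranged from 0 to 520, where the lone section is assumed to vary like the other group: it was 246 and 520 without WT 1 and WT 2, and 0 without F592A 1 or F592A 2 (1071 and 512 at an unadjusted p under 0.05). The replicate numbers are shared only as numbers, since the replicate differences of both groups correlated at 0.0858 over genes. The 13 interactions with tendon-rich spots became 248 without a filter and 76 without the 5 deepest spots, and 14 to 246 with each section left out. Of the 13 genes, 9 were still called without the 5 deepest spots. The 1 interaction with muscle-rich spots became 13 with DESeq2, 209 without a filter and 2 without the 5 deepest spots, and 1 to 111 with each section left out. The difference in share ranged from -10.8 to -1.61 percentage points with each section left out, and that in muscle-rich neighbours from -5.15 to -1.18. The latter turned to 0.67 at 2.5% to under 5% muscle genes. Comp had log2 fold changes of -0.98 without WT 1 and 1.05 without WT 2. For these changes the cause was not tested. Over 206 single-gene results, 3093 of 3491 values kept their side of the threshold and their direction, or changed sign without a call by under 1 SE. Another 310 passed the threshold only in the alternative, and 20 no longer passed. Without a call, 67 changed sign by 1 SE or more, and 1 changed sign with a call.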
